A study of Mus musculus with 6 samples.

Results

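Myosins are motor proteins that move along actin filaments, and tropomyosins are coiled-coil proteins that lie along those filaments and set which motors can bind. Conventional (class II) myosins assemble from paired heavy chains with essential and regulatory light chains into bipolar filaments that contract stress fibres, whereas unconventional myosins carry cargo, link membranes to actin or work at the tips of protrusions. Neural crest cells, the embryonic population that migrates away from the neural tube and gives rise to peripheral neurons, glia, pigment cells and facial skeleton, move by remodelling this actomyosin system. The genes described here are the 53 mouse genes, of 19933 genes with an array probeset of their own, whose symbol begins with Myo, Myh, Myl or Tpm followed by a digit. The name alone chose them, so that sarcomeric genes of striated muscle stand beside the genes of nonmuscle cells. They comprise 24 Myo, 14 Myh, 11 Myl and 4 Tpm genes, each read by its brightest probeset on average.

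The study asked how loss of Nedd4, which encodes a HECT-type ubiquitin ligase, alters gene expression in NCU10K cells, an immortalized mouse neural crest line. RNA was taken 48 h after the cells, kept in DMEM with foetal calf serum, were transfected by lipid reagent (RNAiMAX) with control siRNA (an oligonucleotide of low GC content) or with Nedd4 siRNA. Each group held 3 separately treated cultures, and each culture was read on 1 Affymetrix Gene 1.0 ST Mouse array. All cultures came from this single line, 1 siRNA sequence targeted Nedd4 and no rescue was included, so loss of Nedd4 and other effects of that siRNA cannot be told apart. Values are log2 expression as deposited, and a difference of 1 is a doubling. Precision is limited by how few arrays there were. Because RNA came from whole cultures, a change in the proportion of cells that express a gene and a change in RNA per cell cannot be told apart.

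Nedd4 itself measured 12.24, 12.35 and 12.34 on the log2 scale after control siRNA and 10.45, 10.94 and 10.68 after Nedd4 siRNA. All Nedd4 siRNA arrays lay below all control arrays, a 3.07-fold reduction (log2 fold change −1.62, SE 0.117, adjusted p = 3.16e-06, limma). Of 11 neural crest and early glial markers with a probeset, 10 lay in the brighter 50% of probesets, including Sox10, Foxd3 and Snai2. Within this list 6 markers fell, among them those 3, and 2 rose (Sox9 and Twist1) after Nedd4 siRNA, 72.7% of the list. The share changed was 18.7% among all genes and 33.4% among genes in the brighter 50%. The list's mean level was 9.10 to 9.15 in the control arrays and 8.82 to 8.93 in the Nedd4 siRNA arrays. The part of this shift in the myosin and tropomyosin results was not tested. Array medians ranged from 6.28 to 6.35.

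After Nedd4 siRNA, single members of several classes changed, in both directions. Of the 53 genes, 8 rose (Myo10, Myo1e, Myo6, Myo1d, Myh9, Myo19, Myo1c and Myl6), 3 fell (Myo5b, Myo9a and Tpm4) and 42 did not pass the threshold, an adjusted p under 0.05 with Benjamini-Hochberg adjustment over all probesets. These 11 make up 20.8% of the members, beside 18.7% of all genes tested, of which 9.62% rose and 9.13% fell, so the share called was close to the background of the arrays. The median log2 fold change of the members was 0.04 and that of all genes −0.02. The range ran from −1.05 for Myo5b to 0.85 for Myo10, the widest fall and the widest rise among the members. Of the 53 genes, 16 had groups that did not overlap (11 higher and 5 lower in Nedd4 siRNA), 30.2% against 31.7% of all genes.

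The changed members were bright. All 11 changed genes were among the 22 members in the brighter 50% of probesets, where 33.4% of all genes tested passed the threshold. None of the 31 dimmer members passed by limma, and 17 of these lay in the dimmest 25%. Of all 9611 genes in the dimmer 50%, 290 passed, so calls were rare among dim genes in general. At an unadjusted p under 0.05 limma counted 15 of the 53 members, 28.3% against 28.4% of all genes, and the t-test named in the study's methods counted 14. With 3 arrays a group, a member of median standard error (0.0949) needed a log2 fold change of about 0.30 to pass, and the size needed was smaller for members of smaller standard error.

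**Figure D1:**
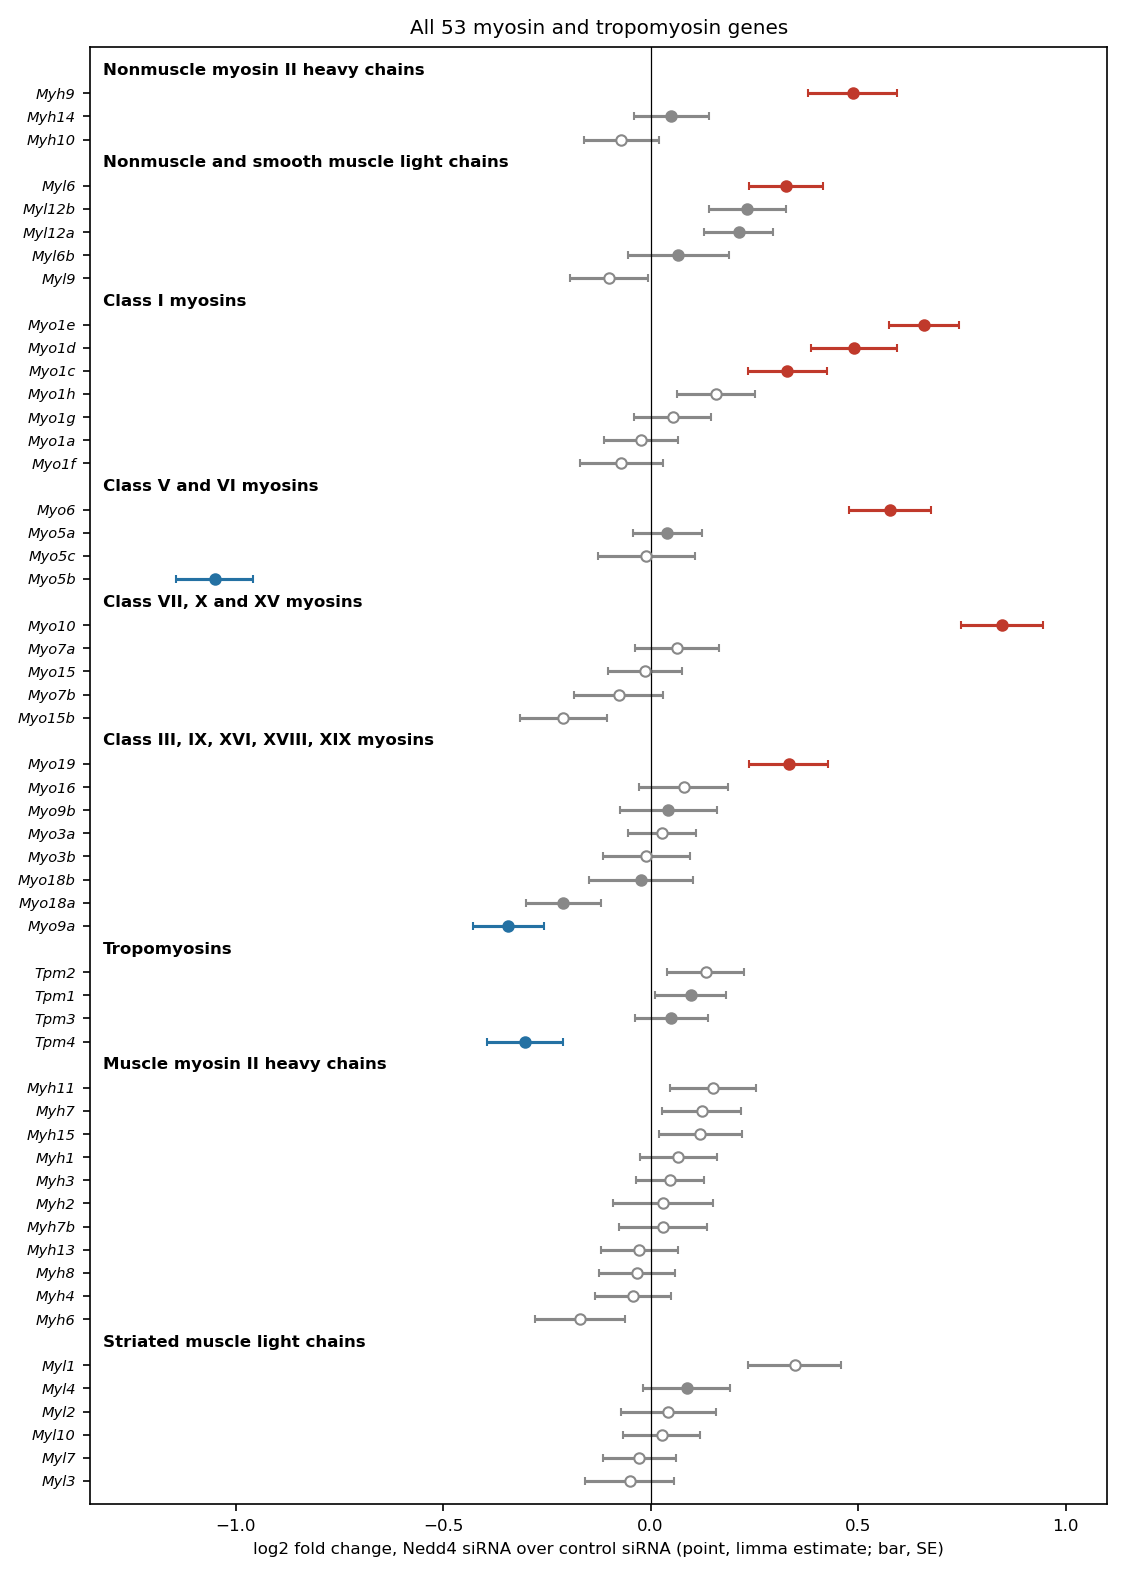
Log2 fold change (x axis, Nedd4 siRNA over control siRNA) of all 53 myosin and tropomyosin genes, grouped by role. Points are limma estimates and bars their SE from 3 arrays a group; red genes rose, blue genes fell, grey genes did not pass the threshold, and open points mark the dimmer 50% of probesets. Myo10 (0.85) and Myo5b (−1.05) lie farthest to the right and left, and the muscle heavy chains stay between −0.17 and 0.15.

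Among the heavy chains of nonmuscle myosin II, the motor of stress fibres and of the cytokinetic ring, 1 of 3 rose. Myh9, which encodes the IIA heavy chain, measured 11.04, 11.09 and 10.70 after control siRNA and 11.40, 11.47 and 11.42 after Nedd4 siRNA. The Nedd4 siRNA arrays sat close together above all control arrays, of which replicate 3 was the lowest, and the rise was 1.40-fold (log2 fold change 0.49, SE 0.108, adjusted p = 0.00743). Its other probeset gave 9.11, 9.20 and 9.41 against 9.56, 9.48 and 9.31. In that probeset the groups overlapped and the difference did not pass (log2 fold change 0.21, SE 0.105, adjusted p = 0.243), so the call for Myh9 rested on 1 of its 2 probesets. Myh14, the IIC heavy chain, measured 7.37, 7.20 and 7.16 against 7.25, 7.33 and 7.30, a log2 fold change of 0.05 (95% interval −0.15 to 0.25, adjusted p = 0.833). Myh10, the IIB heavy chain, lay in the dimmest 25% of probesets at 5.42, 5.20 and 5.32 against 5.23, 5.22 and 5.28 (log2 fold change −0.07, adjusted p = 0.741). Within each array the Myh9 signal (the probeset that passed) minus the Myh14 signal was 0.44 higher on average after Nedd4 siRNA. The groups of that difference did not overlap, and its exact permutation p was 0.1, the smallest that 3 arrays a group allow. The difference contains the Myh9 call and is not separate evidence of a change.

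Of the 5 light chains of nonmuscle and smooth muscle myosin 1 rose, and the median log2 fold change of the group was 0.21. Myl6, an essential light chain that stabilizes the lever arm of the motor, measured 11.96, 11.76 and 11.78 after control siRNA and 12.18, 12.18 and 12.12 after Nedd4 siRNA. The groups were separate, and Myl6 was 1.25-fold higher (log2 fold change 0.33, SE 0.0897, adjusted p = 0.0250). All 6 of its probesets rose, by 0.29 to 0.37. Copies of the gene elsewhere in the genome could not be told apart from it by symbol. The call held without control replicate 1, but was lost without control replicate 2 (adjusted p = 0.0759) or 3 (0.0774), or without Nedd4 siRNA replicate 1 (0.112), 2 (0.0697) or 3 (0.0537).

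The regulatory light chains, whose phosphorylation by myosin light chain kinase switches the motor on, did not pass. Myl12a measured 11.13, 11.15 and 11.23 against 11.37, 11.39 and 11.39, which put every Nedd4 siRNA array above every control array. The log2 fold change was 0.21 (95% interval 0.03 to 0.39) with an adjusted p of 0.117 by limma, and 0.0404 by the methods' t-test. Myl12b, its close paralog, measured 10.43, 10.64 and 10.40 against 10.68, 10.77 and 10.72 (log2 fold change 0.23, 95% interval 0.03 to 0.44, adjusted p = 0.127). The groups did not overlap here either, and without control replicate 2 Myl12b passed with an adjusted p of 0.0468. Because these paralogs are nearly identical and probe sequences were not used here, how far the probesets share signal is uncertain. Myl9, the regulatory light chain abundant in smooth muscle, was in the dimmer 50% at 5.82, 5.65 and 5.63 against 5.56, 5.52 and 5.72 (log2 fold change −0.10, adjusted p = 0.622). Myl6b, a further essential light chain, measured 6.67, 7.17 and 7.10 against 7.03, 7.09 and 7.02 (log2 fold change 0.07, adjusted p = 0.835). Its control replicate 1 lay well below the other control arrays, and without that array the sign turned (log2 fold change −0.09).

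**Figure D2:**
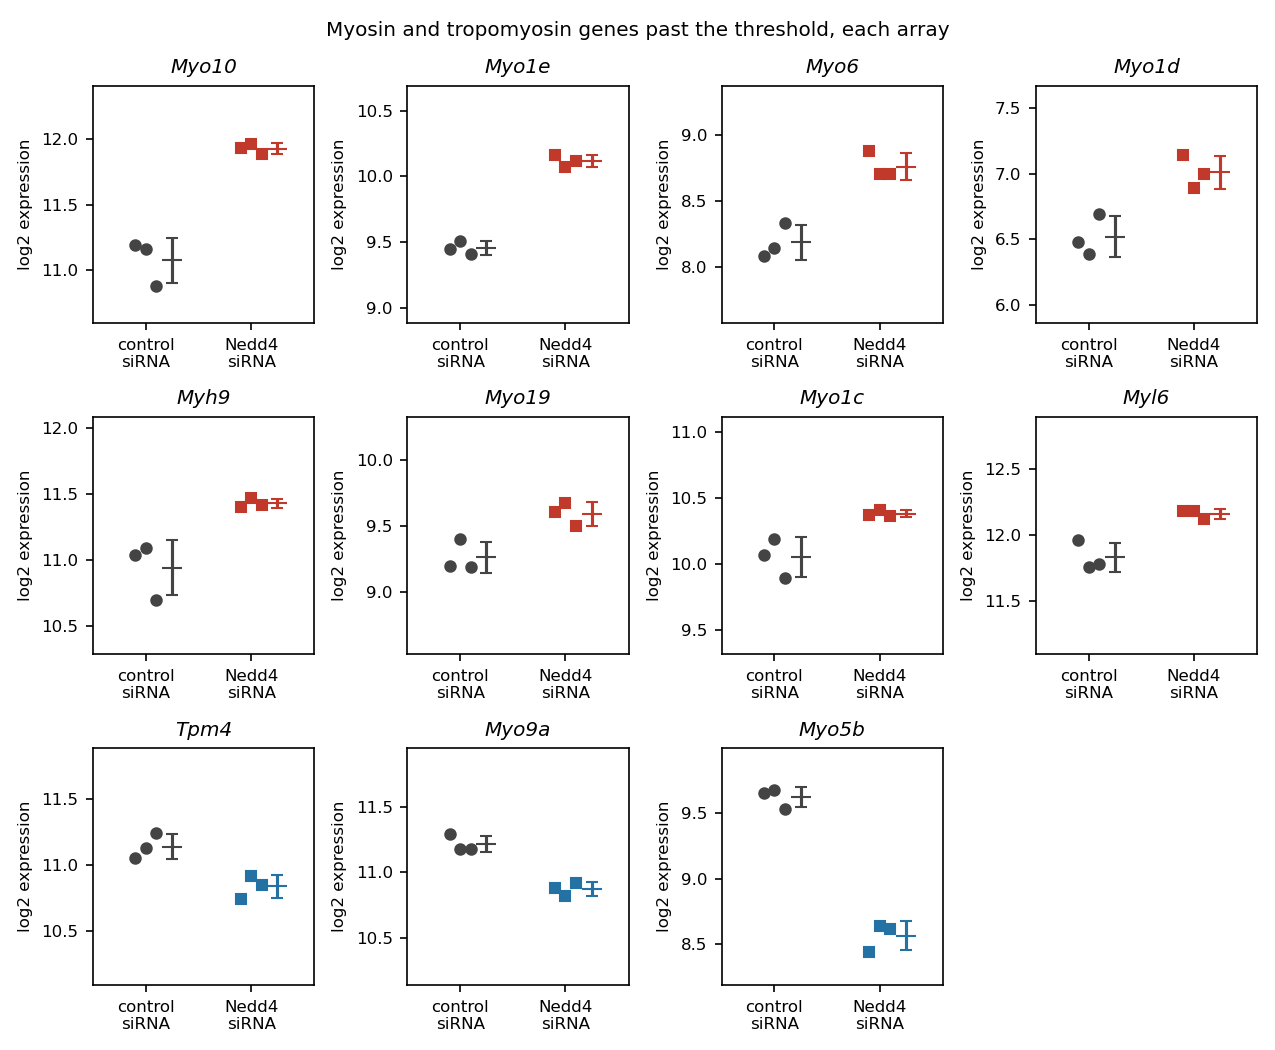
Log2 expression (y axis) of the 11 members past the threshold on each array, with 3 control siRNA arrays (dark circles) and 3 Nedd4 siRNA arrays (red squares where higher, blue where lower). The mark beside each group is the mean with its SD over 3 arrays, every y axis spans the same range, and in each of the 11 genes the groups do not overlap.

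Class I myosins are single-headed motors that bind membrane lipids and tether membranes to actin during endocytosis and in protrusions. Of the 7 measured, 3 rose and the other 4, all in the dimmer 50% of probesets, had log2 fold changes between −0.07 and 0.16. Myo1e, a motor of clathrin-mediated endocytosis and cell adhesion, measured 9.45, 9.51 and 9.41 after control siRNA and 10.16, 10.07 and 10.12 after Nedd4 siRNA. The gap between the groups (0.56) was several times the spread within either, and Myo1e rose 1.58-fold (log2 fold change 0.66, SE 0.0842, adjusted p = 0.000179). Myo1d, a short-tailed class I motor known for its part in left-right asymmetry, measured 6.48, 6.39 and 6.69 against 7.14, 6.89 and 7.0. It rose 1.40-fold (log2 fold change 0.49, SE 0.104, adjusted p = 0.00586). Its second probeset differed by 0.71 (SE 0.0887, adjusted p = 0.000155), so that both probesets rose. Myo1c, which moves glucose transporter vesicles and adapts hair cell channels, measured 10.07, 10.19 and 9.89 against 10.37, 10.41 and 10.36. The rise was 1.26-fold (log2 fold change 0.33, SE 0.0957, adjusted p = 0.0332), and control replicate 3 was again the lowest array. The Myo1c call held without control replicate 2 and was lost without control replicate 1 (adjusted p = 0.0592) or 3 (0.118), or without Nedd4 siRNA replicate 1 (0.111), 2 (0.0899) or 3 (0.0756).

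Promoter sequences are shown for Myo1e and Myl6, the changed members whose promoter holds a CArG box, and for Myl9, a member with the same motif that did not pass. The CArG box is the site that serum response factor binds, together with its coactivators, in genes of the actin cytoskeleton and of muscle. Of the 53 members, 48 had an entry in the RefSeq promoter table (GRCm38.p6), with 60 start sites. Of the 11 changed members, 9 had an entry, and the others were not searched. The CArG box was searched on both strands of the 250 bases before each start, and 6 of the 60 members' promoters (10.0%) held it, those of Myh4, Myl3, Myl6, Myl7, Myl9 and Myo1e. Of all 32851 promoters of that length, 482 held it (1.47%). Of these 6 genes, 2 rose, too few to set against the 20.8% of all 53 members that changed. The sequences run 5′ to 3′ on the strand of the gene, 100 bases each, with the CArG box in capitals.
Myo1e, chr9:70207250-70207349, plus strand: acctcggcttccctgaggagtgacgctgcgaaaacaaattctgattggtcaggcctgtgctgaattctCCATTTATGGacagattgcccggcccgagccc
Myl6, chr10:128493010-128493109, minus strand: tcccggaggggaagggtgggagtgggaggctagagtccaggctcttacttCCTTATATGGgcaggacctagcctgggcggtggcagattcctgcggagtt
Myl9, chr2:156775258-156775357, plus strand: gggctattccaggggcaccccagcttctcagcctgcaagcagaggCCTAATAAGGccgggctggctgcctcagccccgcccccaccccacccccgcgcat
The box began 32 bases before the start in Myo1e, 50 bases before a start in Myl6 and 161 bases before the start in Myl9. A second motif, GGAATG, bound by TEAD factors and likewise searched on both strands, was in 13 of the 60 members' promoters (21.7%) and in 12.6% of all promoters. Of the 13 promoters of the 9 changed members with an entry, 2 held it (15.4%), those of Myo10 and Myo6, a share no higher than among all members. Motifs were chosen after the values were seen. A match is a description of letters and does not show binding, a missing match draws nothing about a factor, and the arrays do not tell which start was used.

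Class V and VI myosins carry vesicles along actin, class V towards the plus ends and class VI towards the minus ends, and the motors that changed here moved in opposite directions. Myo5b, which moves recycling endosomes together with Rab11, measured 9.65, 9.67 and 9.53 after control siRNA and 8.44, 8.64 and 8.62 after Nedd4 siRNA. All Nedd4 siRNA arrays were at least 0.89 below the lowest control array, and Myo5b fell 2.07-fold (log2 fold change −1.05, SE 0.0925, adjusted p = 1.2e-05). Its paralogs did not pass the threshold. Myo5a, the motor of melanosomes and other organelles, measured 10.68, 10.63 and 10.72 against 10.68, 10.72 and 10.75, a log2 fold change of 0.04 with a 95% interval of −0.14 to 0.22 (adjusted p = 0.861). Myo5c was in the dimmer 50% (log2 fold change −0.01, adjusted p = 0.981). Within each array, Myo5b minus Myo5a averaged −1.06 ± 0.118 after control siRNA and −2.15 ± 0.082 after Nedd4 siRNA (SD over 3 arrays each), so the difference between these paralogs moved by −1.09. That difference contains the Myo5b call and is not separate evidence of a change (exact permutation p = 0.1, the smallest possible). Myo6, the class VI motor of endocytic vesicles, measured 8.08, 8.14 and 8.33 against 8.88, 8.70 and 8.70. The groups were separate and Myo6 rose 1.49-fold (log2 fold change 0.58, SE 0.0982, adjusted p = 0.00134).

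Of the 5 measured myosins of classes VII, X and XV, whose tails carry MyTH4 and FERM domains, 1 rose. Myo10, the motor that travels to filopodial tips and binds integrins and phosphoinositides, was at 11.19, 11.16 and 10.88 after control siRNA and at 11.93, 11.96 and 11.88 after Nedd4 siRNA. The Nedd4 siRNA arrays agreed within 0.08 of each other and lay 0.69 or more above the highest control array. Myo10 rose 1.80-fold (log2 fold change 0.85, SE 0.0999, adjusted p = 0.000101). The other 4, among them the stereocilia motors Myo7a and Myo15, were in the dimmer 50% with log2 fold changes from −0.21 to 0.06. Myo15b had groups that did not overlap (log2 fold change −0.21, adjusted p = 0.246).

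The 8 remaining unconventional myosins belong to classes III, IX, XVI, XVIII and XIX, and 1 rose and 1 fell. Myo19, which moves mitochondria on actin, measured 9.20, 9.40 and 9.19 against 9.61, 9.68 and 9.50, a 1.26-fold rise (log2 fold change 0.33, SE 0.0950, adjusted p = 0.0303). The groups were 0.10 apart. The Myo19 call was lost without control replicate 1 (adjusted p = 0.0871) or 3 (0.0996) and without Nedd4 siRNA replicate 1 (0.119) or 2 (0.107). Myo9a, a motor whose tail carries a GTPase-activating domain, measured 11.29, 11.18 and 11.18 against 10.88, 10.82 and 10.92. Each Nedd4 siRNA array lay below each control array, a 1.27-fold fall (log2 fold change −0.34, SE 0.0855, adjusted p = 0.0147). Of its 13 probesets 9 fell, 4 did not pass, and all 13 had a log2 fold change below 0, from −0.55 to −0.14 with a median of −0.35. Without Nedd4 siRNA replicate 1 or 2 the Myo9a call was lost (adjusted p = 0.0677 and 0.0552). Myo9b, its paralog, had a log2 fold change of 0.04 (adjusted p = 0.896), and within arrays the Myo9a minus Myo9b difference moved by −0.39. That difference contains the Myo9a call and is not separate evidence of a change (exact permutation p = 0.1, the smallest possible). Myo18a, which links Golgi membranes to actin, measured 8.66, 8.70 and 8.49 against 8.37, 8.42 and 8.43. The groups did not overlap, yet the difference did not pass (log2 fold change −0.21, 95% interval −0.41 to −0.02, adjusted p = 0.159). Myo18b was read by 20 probesets, none of which passed by limma, with log2 fold changes from −0.12 to 0.21. Of these, 16 were in the dimmer 50%, and its brightest (mean 9.17 after control siRNA) places it among the brighter members.

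**Figure D3:**
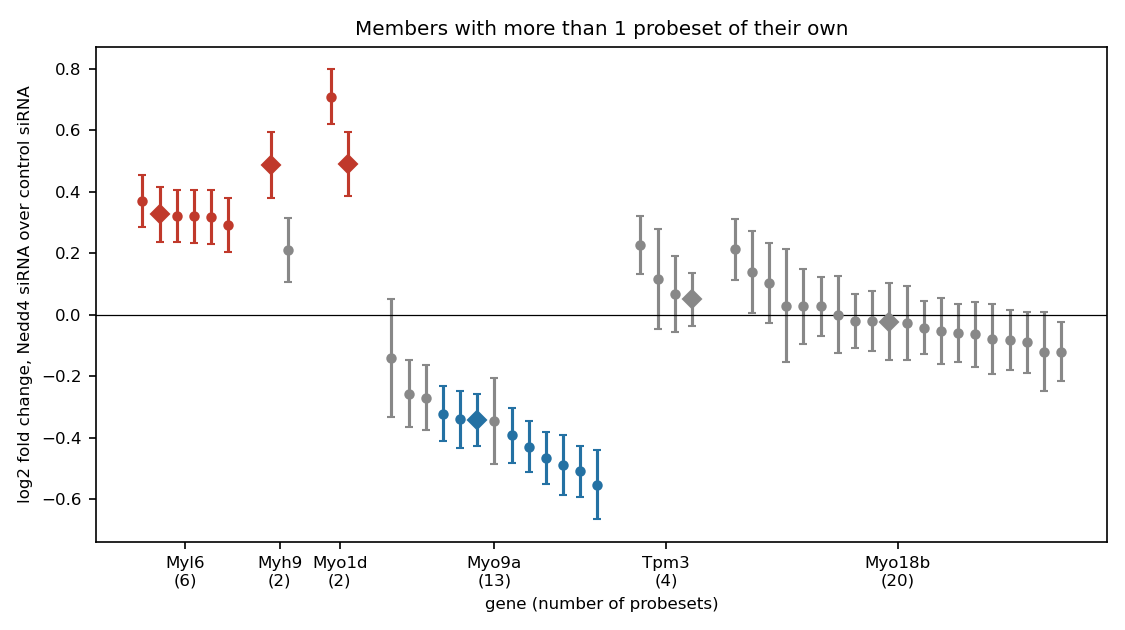
Log2 fold change (y axis, Nedd4 siRNA over control siRNA) of each probeset of the 6 members with more than 1 probeset of their own, with the number of probesets under each gene. Diamonds mark each gene's brightest probeset, bars are limma SE (3 arrays a group), and red, blue and grey mark probesets that rose, fell or did not pass. The 6 Myl6 probesets lie between 0.29 and 0.37, the 13 Myo9a probesets all lie below 0, and the Myh9 probesets differ in their call.

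Tropomyosins gave 1 fall among 4 genes. Tpm4, a tropomyosin of nonmuscle filaments, measured 11.05, 11.13 and 11.24 after control siRNA and 10.74, 10.92 and 10.85 after Nedd4 siRNA. The groups were separate by 0.13, and Tpm4 fell 1.23-fold (log2 fold change −0.30, SE 0.0921, adjusted p = 0.0415). The Tpm4 call was lost when arrays were centred on their medians (adjusted p = 0.0727). It was also lost without control replicate 2 (0.0756) or 3 (0.135) and without Nedd4 siRNA replicate 1 (0.214) or 3 (0.0961). Tpm1, which supplies both muscle and nonmuscle isoforms, measured 11.47, 11.55 and 11.41 against 11.58, 11.61 and 11.53. Its groups overlapped, with a log2 fold change of 0.10 (95% interval −0.09 to 0.28, adjusted p = 0.589). Tpm3, another source of short nonmuscle isoforms, measured 11.99, 12.07 and 11.95 against 12.02, 12.14 and 12.00 (log2 fold change 0.05, adjusted p = 0.825). Its 4 probesets gave 0.05 to 0.23 and none passed by limma. In 1 of them, the least bright, the groups did not overlap (7.89, 7.86 and 7.83 against 8.01, 8.24 and 8.01). As for Myl6, copies of Tpm3 elsewhere in the genome could not be told apart from it by symbol. Tpm2, best known from muscle, was in the dimmer 50% at 5.51, 5.37 and 5.42 against 5.61, 5.44 and 5.65 (log2 fold change 0.13, adjusted p = 0.449). Within arrays, Tpm4 minus Tpm1 moved by −0.40, and the groups of that difference did not overlap (exact permutation p = 0.1, the smallest possible). That difference contains the Tpm4 call and is not separate evidence of a change. Each gene makes several tropomyosin isoforms from alternative starts and exons, and a gene-level probeset does not separate them.

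The myosins of striated and smooth muscle stayed dim. All 11 muscle heavy chain genes were in the dimmer 50% of probesets with values of 4.81 to 5.98 on any array. None passed by limma (none at an unadjusted p under 0.05 either), and log2 fold changes ran from −0.17 to 0.15. Myh6, a cardiac heavy chain, had the smallest p of them, at 5.64, 5.47 and 5.41 against 5.22, 5.24 and 5.55 (adjusted p = 0.402). Sarcomeric heavy chains are alike in sequence, so their probesets may share signal. Of 6 light chains of striated muscle none passed by limma, and 1 did at an unadjusted p under 0.05. Myl1, the fast skeletal essential light chain, measured 4.86, 5.16 and 5.16 against 5.45, 5.53 and 5.24. The groups did not overlap, but the probeset was among the dimmest 25% and the difference did not pass (log2 fold change 0.35, SE 0.111, adjusted p = 0.0531). Myl1 passed under some refits, among them the one without Nedd4 siRNA replicate 3 (adjusted p = 0.0310). Myl4, the atrial light chain, was the bright exception at 7.95, 8.16 and 8.31 against 8.17, 8.31 and 8.20 (log2 fold change 0.09, adjusted p = 0.718).

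Markers of muscle cells were read beside these genes. Of 11 skeletal muscle markers 1 rose (Casq1), of 8 smooth muscle markers 1 rose (Des), and of 8 cardiac markers and 6 melanocyte markers none passed by limma (0 and 1 at an unadjusted p under 0.05). The mean level was 5.81 to 6.02 in control arrays and 5.85 to 6.02 in Nedd4 siRNA arrays for the skeletal list, 6.42 to 6.57 and 6.5 to 6.56 for the smooth muscle list, and 6.36 to 6.46 and 6.30 to 6.37 for the cardiac list. The melanocyte list was at 5.79 to 5.84 in both groups.

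Genes that act on myosins and tropomyosins, such as light chain kinases, filament caps and cargo adaptors, were read beside the members. Of 78 genes so listed, in 4 lists, 75 had a probeset, and these include Lrpap1, which is not known to act on myosins. Of the 75, 15 rose, 7 fell and 53 did not pass, so 29.3% changed beside 18.7% of all genes. Of these 75, 56 lay in the brighter 50% of probesets, where the background was 33.4%. Their median log2 fold change was 0.02.

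Kinases and phosphatase subunits of the regulatory light chain changed in 8 of 21 cases (38.1%), beside 18.7% of all genes, with 7 genes higher and 1 lower. All 8 were among the 15 of this list in the brighter 50% of probesets, where 33.4% of all genes passed. Cdc42bpg, a kinase of the MRCK family that acts downstream of Cdc42, measured 7.62, 7.84 and 7.44 after control siRNA and 8.66, 8.56 and 8.46 after Nedd4 siRNA. It rose 1.90-fold (log2 fold change 0.93, SE 0.110, adjusted p = 0.000106), while its relative Cdc42bpb fell (log2 fold change −0.45, adjusted p = 0.00901). Of the targeting subunits of myosin phosphatase, Ppp1r12c rose by 0.47 (adjusted p = 0.00257) and Ppp1r12a by 0.43 (adjusted p = 0.00501), and Ppp1r12b did not pass (log2 fold change 0.16, adjusted p = 0.496). Mprip, which anchors that phosphatase to actin, rose by 0.49 (adjusted p = 0.00699). Of the other kinases, Mylk rose by 0.37 (adjusted p = 0.00987), Rock1 by 0.31 (adjusted p = 0.0266) and Stk17b by 0.47 (adjusted p = 0.00738), and 8 did not pass, among them Mylk2, Mylk3 and Mylk4. By the methods' t-test Mprip (adjusted p = 0.116), Cdc42bpb (0.112), Stk17b (0.105) and Rock1 (0.0557) did not pass. Without Nedd4 siRNA replicate 1 the calls of Mylk (adjusted p = 0.0544) and Rock1 (0.156) were lost. Rock1 was also lost without control replicate 1 (0.0661) or 2 (0.0664) or Nedd4 siRNA replicate 3 (0.0804).

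Genes of the thin filament changed in 3 of 19 cases (15.8%), below the 18.7% of all genes, and 10 of the 19 were in the brighter 50%. Tmod3, which caps the pointed ends of tropomyosin-coated filaments, measured 8.74, 8.94 and 8.62 against 9.44, 9.33 and 9.34 and rose 1.52-fold (log2 fold change 0.60, SE 0.0993, adjusted p = 0.00108). Cald1, caldesmon, rose by 0.33 (adjusted p = 0.0283), a call that was lost without control replicate 1 (0.0676) or 3 (0.102) or Nedd4 siRNA replicate 1 (0.132), 2 (0.0555) or 3 (0.0691). Tnni1, the slow skeletal troponin I, fell by 0.54 (adjusted p = 0.00245). The Tnni1 probeset was in the dimmer 50%, at 6.35, 6.44 and 6.59 against 5.80, 5.92 and 6.05. By the methods' t-test none of these 3 passed (adjusted p = 0.0501 for Tmod3, 0.108 for Cald1 and 0.0630 for Tnni1).

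Among 19 chaperones, calmodulins and cargo adaptors, 5 rose and 2 fell (36.8%), beside 18.7% of all genes. All 7 were among the 16 of this list in the brighter 50%, where 33.4% of all genes passed. Rab11fip2, an effector of Rab11 that binds Myo5b on recycling endosomes, measured 8.75, 8.74 and 8.63 against 9.30, 9.34 and 9.23. It rose 1.5-fold (log2 fold change 0.58, SE 0.0861, adjusted p = 0.000506), in the opposite direction to Myo5b. Anln, anillin, which joins actin and myosin II in the cytokinetic ring, rose by 0.45 (adjusted p = 0.00238). Lrpap1, a chaperone of lipoprotein receptors not known to act on myosins, is counted in this list and rose by 0.51 (adjusted p = 0.00124). Mylip, a ubiquitin ligase of the low-density lipoprotein receptor that also binds the regulatory light chain, fell by 0.57 (adjusted p = 0.00298). Unc45a, the chaperone that folds nonmuscle myosin heads, had a log2 fold change of −0.40 (adjusted p = 0.0487), which did not pass without control replicate 2 (0.163) or 3 (0.0799) or Nedd4 siRNA replicate 1 (0.214) or 3 (0.125), with median centring (0.0875) or by the methods' t-test (0.283). Mylip did not pass by that t-test either (0.0905).

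**Figure D4:**
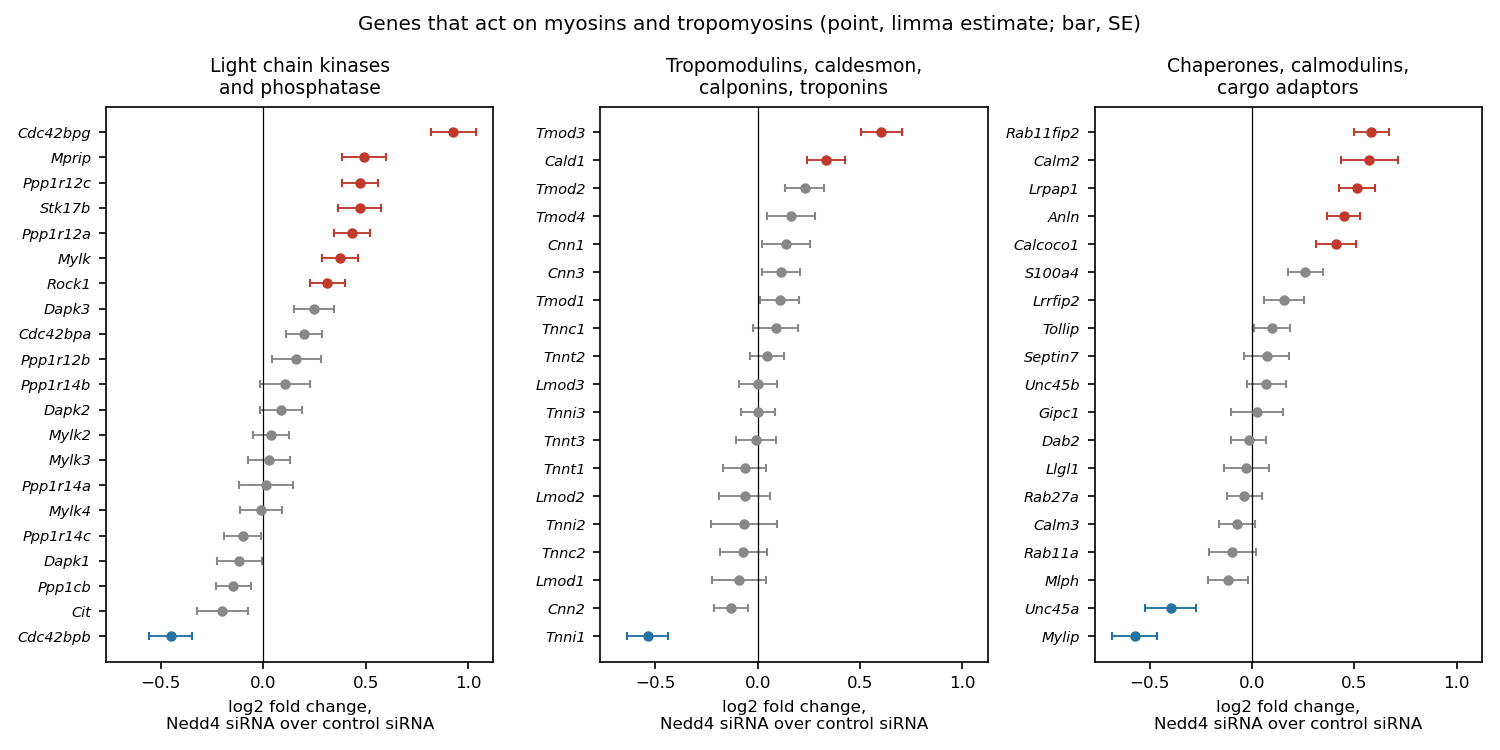
Log2 fold change (x axis, Nedd4 siRNA over control siRNA) of genes listed as acting on myosins and tropomyosins, in 3 lists of 21, 19 and 19 genes. Points are limma estimates and bars their SE from 3 arrays a group; red genes rose, blue genes fell and grey genes did not pass. Among the genes plotted, Cdc42bpg (0.93) lies farthest to the right and Mylip (−0.57) farthest to the left.

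The changed members differed in how far their calls held when the fit was altered. Myo10, Myo1e and Myo5b passed in all 16 refits, and Myo6, Myo1d and Myh9 in 15 of 16. The exception for these 3 was the methods' t-test (adjusted p = 0.0511, 0.0983 and 0.117). Over the 16 refits the log2 fold change lay between 0.75 and 0.90 for Myo10, 0.64 and 0.69 for Myo1e, and −1.12 and −0.99 for Myo5b. Without Nedd4 siRNA replicate 1, 6 members passed, and 12.1% of all genes did. Without control replicate 3 or Nedd4 siRNA replicate 2, 7 members passed. All 11 kept their sign in every refit. In the 22 brighter members the median SD was 0.115 among control arrays and 0.045 among Nedd4 siRNA arrays.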

How the data were processed

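The authors made the deposited log2 expression values (28440 probesets, 2 decimals) from 6 scans in Partek 6.5 with RMA background correction, a GC content adjustment and mean probe summarization. No further normalization was applied here, the scans were not used, and probe-level filters were not given in the sources used here. GEO's platform annotation gave 21780 probesets 1 gene symbol, 1618 several and 5042 none. Probesets with several symbols named no gene, among them 1 that lists a member with another gene (Tpm4). The 53 members had 94 probesets.

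Groups were compared with limma 3.58.1 (R 4.3.3; lmFit and eBayes, no covariate) on all probesets, with Benjamini-Hochberg adjustment and a threshold of 0.05. The methods' t-test is the plain ANOVA that the study names. The fit was checked on simulated arrays with known changes. Python 3.11.15, pandas 2.3.3, NumPy 2.4.6 and Matplotlib 3.10.9 were used for counts and figures. Dimmer and dimmest refer to the lower 50% and 25% of probesets by mean over all arrays (6.32 and 5.47).

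Members and lists were chosen with earlier results of these data known. The naming rule took Nedd4, members past the threshold, all nonmuscle myosin II chains and tropomyosins, the member of smallest p in groups without a call, members whose probesets differ, and up to 4 changed genes of smallest p per regulator list reported. Myo5a, Myo5c, Myo7a, Myo9b, Myo15, Myo15b, Myo18a, Myo18b, Myl4, Cdc42bpb, Mylk, Mylk2, Mylk3, Mylk4, Ppp1r12b, Rock1, Stk17b, Unc45a and the marker genes were named after their values were seen, and so were the paralog differences chosen. Alternatives were other tests, moderation, array weights, the replicate block, other scalings, filters on dim probesets, probeset choices, a stricter threshold and leaving out each array. Of the 4 regulator lists, 1 enters the counts over all regulators and is not reported here on its own.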

Additional observations from a re-analysis of the deposited data

How the results depend on the processing

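The labels number the replicates but do not say whether same-numbered arrays were paired. Deviations from the group mean correlated at −0.01, 0.47 and −0.01 between same-numbered arrays. Between differently numbered arrays the correlations ran from −0.426 to 0.415, and these are too few values to settle the pairing. The fit with a replicate block called 11 members, all 11 of them shared with the fit without it. With the methods' t-test 5 members passed, 3 of them higher, and 12 of the 75 regulators instead of 22, and 1804 of all genes passed instead of 3737. Myl12a passed by that test, and Myh9, Myl6, Myo19, Myo1c, Myo1d, Myo6 and Tpm4 did not. At an adjusted p under 0.01, 6 members passed, 5 higher and 1 lower, and 2362 of all genes did. Leaving out 1 array gave 6 to 10 members, 5 to 8 higher and 1 to 3 lower, and a log2 fold change of Myl6b between −0.088 (without control siRNA replicate 1) and 0.162. Median centring removed Tpm4 among the members and Unc45a among the named regulators. Trend and robust moderation, array weights and a test restricted to probesets with 1 symbol each added Myl1 to the 11 members. Quantile normalization, leaving out the dimmest 25% or 50% of probesets and averaging a gene's probesets kept the same 11. Signal over background limits the 31 members in the dimmer 50% of probesets, for which a null result says little. The causes of these differences were not tested.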
